A study of Mus musculus with 12 samples.

Results

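Isolated Ino80 peaks are stretches of Ino80 enrichment that stand alone on the chromosomes of mouse embryonic stem cells. They were chosen by their position and width: autosomal peaks with at least 100 kb of peak-free sequence to the nearest other peak, measured from edge to edge, and a width of 1200 to 9800 bp. Of 12749 listed peaks, 2042 met these limits, which was 16.0% of the list and 16.3% of the 12542 autosomal peaks. Distance and width are therefore properties that defined the set, and their values below are descriptions without a test.

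The list came from 1 chromatin immunoprecipitation sequencing (ChIP-seq) library made with an antibody to Ino80 in unmodified J1 cells, an embryonic stem cell line. Per the labels, the cells were kept in ESGRO medium and moved to M15 medium for the ChIP. The chromatin was fixed with formaldehyde and sonicated, and the library was built with the Nextera XT kit. The series holds 12 samples, each the single sample of its group, and the other 11 were not analysed here: the matching input, and 10 libraries from J1 cells given a lentiviral short hairpin RNA, either a non-targeting one (NT) or one against Ino80. No value below has a replicate error, and the intervals given cover counting error only. The identity of the cells could not be checked in a list of positions and was taken from the labels.

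Ino80 is the ATPase of the INO80 complex, a large chromatin remodeller that uses ATP to slide nucleosomes and to act on nucleosomes with the histone variant H2A.Z. The complex also serves in transcription, replication and repair, and one of its partners is the DNA-binding protein YY1. In embryonic stem cells INO80 is known from promoters and enhancers of active genes, including genes of the pluripotency network.

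The most isolated peak of all lay at chr14:87815601-87818000 (mm9, as are all positions here). This peak of 2.4 kb had 7.06 Mb without a peak on its left and 4.26 Mb on its right. A peak of 1.4 kb at chr3:113332201-113333600 followed among those with a neighbour on both sides, with 2.94 and 2.26 Mb of empty sequence. The last peak of chromosome 17, at chr17:95148001-95149800, had 3.84 Mb on its left and no peak to its right, so its distance rests on 1 side. All 3 were below the median width of the set, 2800 bp, at 2.4, 1.4 and 1.8 kb. They were the 3 members with a nearest peak at 2 Mb or more, 0.147% of the set (95% Clopper-Pearson interval 0.0303 to 0.429%).

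The next members in order of isolation were found on 5 further chromosomes and again on chromosomes 3 and 14. The peak at chr7:11079601-11081200 was 1.6 kb wide and had 3.83 Mb to its left and 1.79 Mb to its right. The peak at chr4:71860001-71862800 was 2.8 kb wide and stood almost in the middle of its empty stretch, with 1.79 and 2.01 Mb on its sides. The peak at chr1:112670601-112672000 was 1.4 kb wide, between 1.74 and 2.05 Mb. Widths among the 10 most isolated members ran from 1.4 to 3.0 kb, the widest being chr8:117532801-117535800. None of these 10 therefore reached 4000 bp, a width met by 24.4% of all members.

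The widest members came near the upper width limit of the set. The peak at chr6:64676801-64686600 was 9.8 kb wide, with empty stretches of 1.20 Mb and 258 kb on its sides. The other peak of 9.8 kb, at chr7:109584601-109594400, had its nearest neighbour at 184.6 kb and 1.67 Mb of empty sequence on the far side. Peaks of 9.6 kb were found at chr15:92830401-92840000 and chr16:93460601-93470200, with nearest peaks at 264.4 and 133.2 kb. Among the 10 widest members the nearest peak was 100.8 to 430.8 kb away, the farthest being that of chr14:61350201-61359600. This range includes the median of all members, 193 kb. A member in the middle of both rankings, at chr3:7502401-7505200, was 2.8 kb wide with its nearest peak at 191.2 kb.

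The widths of isolated peaks were shifted towards lower values within the limits. Their median width was 2800 bp, with quartiles at 2000 and 3800 bp. The 9579 other autosomal peaks within the same width limits had a median of 3800 bp and quartiles at 2600 and 5200 bp. The most frequent width was 1600 bp, shared by 143 members. Members under 2000 bp made up 23.4% of the set (interval 21.6 to 25.3%), against 962 of the 9579 other peaks (9.45 to 10.7%). Widths of at least 6000 bp were found in 6.02% of members (5.03 to 7.15%) and in 18.8% of the other peaks (18.1 to 19.6%). The width limits cut the same ends off both sets, and no test was made between them, since all peaks share 1 library.

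**Figure D1:**
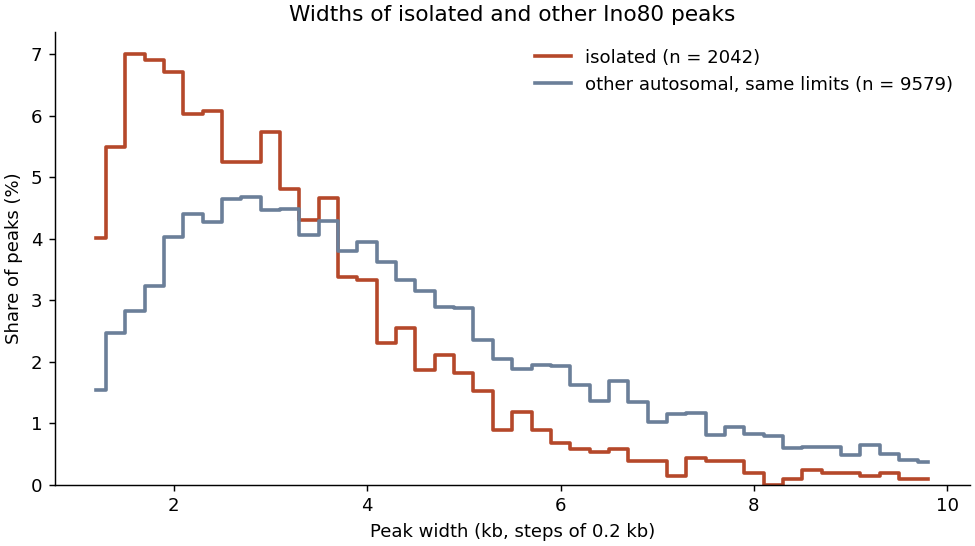
Share of peaks (%) at each width (kb, in steps of the 0.2 kb grid of the list) for the 2042 isolated peaks and the 9579 other autosomal peaks within the same limits. The isolated peaks are most frequent at 1.6 kb (143 peaks) and the curves cross between 3 and 4 kb.

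Beyond the width limits the isolated class went on mainly at its narrow side. Another 147 autosomal peaks were isolated but narrower than 1200 bp, and 14 were wider than 9800 bp. Narrow ones made up 6.67% of the 2203 isolated autosomal peaks of any width (5.67 to 7.80%), compared with 1.63% of the autosomal peaks with a nearer neighbour (1.40 to 1.90%). Wide ones made up 0.635% (0.348 to 1.06%), compared with 5.72% (5.28 to 6.18%). At the edges of the rule, 82 members were exactly 1200 bp wide and 74 isolated peaks were 1000 bp wide. At the upper limit 2 members measured 9800 bp, and 1 isolated peak, at chr7:146763601-146773600, measured 10000 bp.

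Some peaks lay close to the distance limit on either side of it. A pair of members on chromosome 2, at chr2:127306801-127309800 and chr2:127409801-127417400, faced each other at exactly 100 kb. They were 3.0 and 7.6 kb wide. Just outside, the peak at chr13:6776001-6777800 had a neighbour at 99.8 kb, and those at chr2:129521401-129525400 and chr10:20669801-20672800 at 99.6 kb. Their widths, at 1.8, 4.0 and 3.0 kb, lay within the width limits of the rule. This holds for 11621 of the 12542 autosomal peaks, so it does not show how alike these peaks are to the members.

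Within the isolated set, the more remote peaks were narrower. The median width was 3000 bp for the 1052 members with the nearest peak at 100 to 200 kb (95% order-statistic interval 2800 to 3000 bp). It was 2400 bp at 300 to 500 kb (320 members, 2200 to 2600 bp) and 2000 bp at 1 Mb or more (56 members, 1800 to 2200 bp). The order was not strict, since the 214 members at 500 kb to 1 Mb had a median of 2600 bp (2400 to 2800 bp), an interval that overlaps that of the class before it. Peaks of 4000 bp or more made up 28.4% of the first class (25.7 to 31.2%) and 14.3% of the last (6.38 to 26.2%). In the other peaks of the same limits the median stepped down from 4200 bp with a neighbour under 5 kb away to 3200 bp at 50 to 100 kb.

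**Figure D2:**
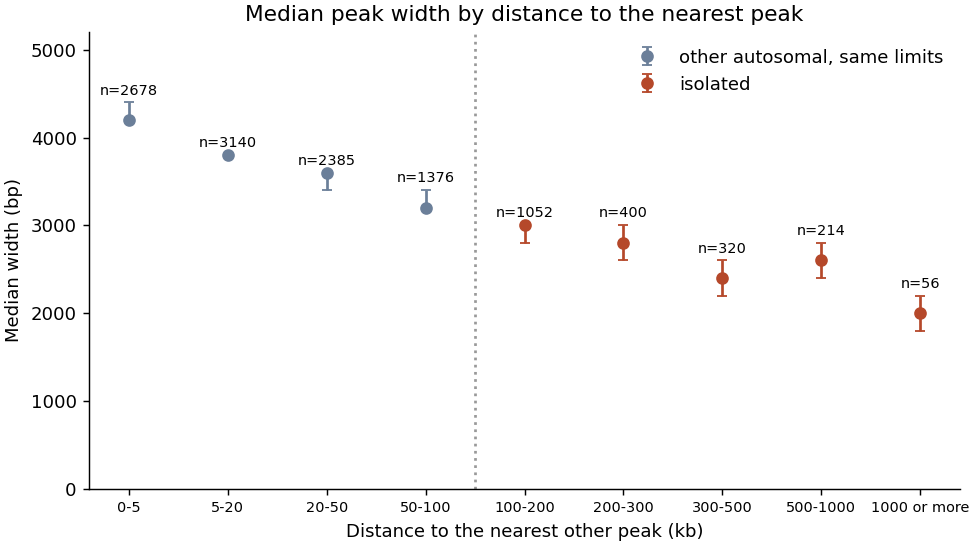
Median width (bp) of autosomal peaks within the width limits by distance to the nearest other peak (kb), with bars for the 95% order-statistic interval and the number of peaks. The dotted line marks the limit of 100 kb: the median goes from 4200 bp on the far left to 2000 bp for isolated peaks at 1 Mb or more.

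The trend was weak peak by peak. Spearman's rho between width and nearest distance was -0.17 over the 2042 members, given as a description because the peaks share 1 library and the rule used both measures. With distances taken between edges, a wide peak lies slightly nearer to its neighbours. Measured between midpoints in the same members, rho was -0.16. By autosome, rho ran from -0.32 on chromosome 7 to 0.03 on chromosome 13. It was below 0 on 18 of 19, but close to 0 on chromosomes 4 and 18 (both -0.01) and on chromosome 11 (-0.003), and -0.08 on chromosomes 9 and 10. The far side went the same way by median, among members with the nearest peak at 100 to 200 kb. Their median width was 3000 bp where the farther stretch was under 500 kb (703 members, 3000 to 3200 bp). It was 2800 bp at 500 kb to 1 Mb (211 members, 2600 to 3000 bp) and 2600 bp at 1 Mb or more (134 members, 2400 to 3000 bp). The first interval touches the later ones. Peaks of 4000 bp or more made up 31, 21 and 25% of these classes, so that share was lowest in the middle class. Read depth per peak is not in the list, so its part in these widths was not tested.

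Isolation was often lopsided. The median member had its nearest peak at 193 kb (quartiles 134 and 335 kb) and, among the 2025 members with a peak on both sides, 529 kb of empty sequence on the far side (quartiles 291 kb and 1.03 Mb). The farther stretch was less than 2 times the nearer one in 46.7% of these members (44.5 to 48.9%) and at least 5 times in 17.0% (15.4 to 18.7%). In 526 members, or 26.0% (24.1 to 27.9%), the farther side was empty for 1 Mb or more. The nearest peak was at that distance in 56 members, 2.74% of the set (2.08 to 3.55%). The near side lay to the left in 51.9% (49.7 to 54.1%). Members that are each other's nearest peak fall on opposite sides, which draws this share towards an even split. The interval does not allow for such pairs. The 17 remaining members were the first or last peak of their chromosome.

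**Figure D3:**
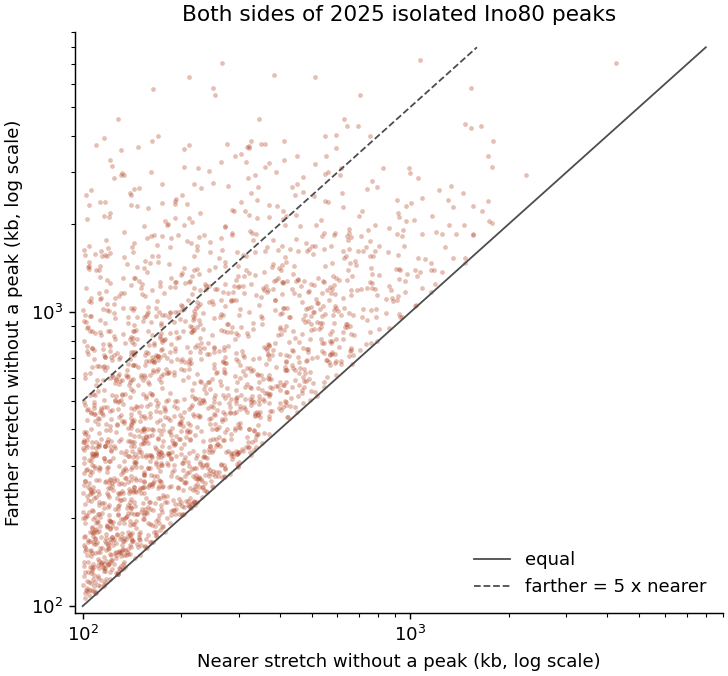
Nearer against farther stretch without a peak (kb, both axes logarithmic) for the 2025 isolated peaks with a neighbour on each side, 1 point per peak. The solid line marks equal stretches and the dashed line a farther stretch 5 times the nearer; 17.0% of the points lie on or above the dashed line, and the point farthest to the right is the peak on chromosome 14.

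Few members were alone on the scale of a megabase. Within 1 Mb on either side of its midpoint, the median member had 8 other peaks (quartiles 4 and 13). The other autosomal peaks of the same limits had 19 (quartiles 12 and 32), a difference that the distance limit builds in. Still, 803 members, or 39.3% (37.2 to 41.5%), had 10 or more peaks within that reach. Among the other peaks of the same limits this share was 81.9% (81.1 to 82.7%). In 56 members, 2.74%, there was no other peak at all. Width differed with this local number: the median was 2000 bp with none (1800 to 2200 bp), 2400 bp with 3 to 5 peaks (2400 to 2600 bp) and 3000 bp with 10 or more (3000 to 3200 bp). The nearest distance changed along with it, from a median of 1265 kb with none to 149.8 kb with 10 or more. This is therefore not separate from the relation of width and distance above.

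Isolated peaks tended to come one after the other. Counting members that directly follow each other on a chromosome, the 2042 peaks formed 991 runs, of which 492 were single peaks. The remaining 1550 members, or 75.9%, stood in runs of 2 or more, and 450 (22.0%) in runs of 5 or more. The rule favours such runs, since a member has a long empty stretch on each side, and each stretch also counts for its neighbour. The nearest peak was itself a member in 48.7% of cases (46.5 to 50.9%). Members with a member on each side had a median width of 2600 bp (2400 to 2800 bp), against 3000 bp (2800 to 3000 bp) where neither neighbour was a member. These intervals touch. The median nearest distance also differed between these groups, at 218 kb against 173 kb, so they were not matched in distance.

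The longest run held 11 members over 5.14 Mb, at chr1:174585601-179729000. It began with a peak of 5400 bp, which had 1.31 Mb of empty sequence to its right, and continued with peaks of 3600, 2200, 2400, 2800 and 4200 bp. A pair of small peaks of 1600 and 1800 bp, 120.8 kb apart, came next, and it ended with 3400, 3000 and 5200 bp. The widest peaks of this run thus lay at its edges. Runs of 9 were found at chr5:46059801-53416600, chr8:67731201-71318800 and, close to each other, at chr12:40467801-43627400 and chr12:44136601-50353600. The run on chromosome 5 was the most spread out of these, 7.36 Mb long with peaks of 1400 to 3400 bp.

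Widths were mixed within a run. Across the 1051 pairs of directly consecutive members, the widths had a Spearman's rho of 0.06, and it was 0.08 across the 8031 consecutive pairs of other peaks of the same limits. These are descriptions, since each peak enters up to 2 pairs. Between the width of a member and that of its nearest peak, isolated or not, rho was 0.15 over the 2042 members, also a description. The run of 8 members at chr1:138842001-141020800 shows the spread, with a median of 1700 bp, a narrowest peak of 1200 bp and a widest of 9000 bp.

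The isolated peaks marked out a large part of the empty genome while covering little of it. They held 6.38 Mb, or 11.7% of the 54.5 Mb that all autosomal peaks cover. The peak-free stretches that border at least 1 member added up to 1627 Mb, 69.6% of the 2339 Mb of peak-free sequence between autosomal peaks. These were 3016 of 12523 stretches, or 24.1%. Of the 510 stretches of 1 Mb or more, 416 had a member at one end or both (81.6%, interval 77.9 to 84.8%). A border with a long stretch follows from the rule; the remaining long stretches lay between peaks with a near neighbour on their other side or a width outside the limits. Assembly gaps and unmappable sequence were not removed from these lengths.

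The number of isolated peaks per bin varied less, relative to its mean, than that of the other autosomal peaks. In 469 whole bins of 5 Mb over the autosomes, the number of members had a median of 4, with 1 and 7 at the 10th and 90th percentiles and 11 at most. The other peaks had a median of 16, with 3 and 50 at these percentiles and up to 117. The variance was 1.30 times the mean for members and 20.8 times for the others. For unevenly spread peaks this ratio tends to rise with the number per bin. The other peaks were more numerous, so these ratios are not directly comparable. At least 1 member was found in 451 of the 469 bins (96.2%). In bins of 1 Mb, 1332 of 2384 held a member (55.9%, interval 53.8 to 57.9%), and in 294 of these the member was the single peak of its bin. The rule sets a ceiling, since crowded sequence cannot hold many members.

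The 18 bins of 5 Mb without a member included crowded and empty ones, and only such extremes are named here. The bin at chr19:3278601-8278600 held 117 peaks and chr4:128501201-133501200 held 113, none of them isolated. At the other extreme, chr6:73447801-78447800 and chr14:93639201-98639200 held no peak at all. The largest number of members, 11, was reached at chr9:83333801-88333800, among 16 peaks, and at chr3:96848201-101848200, among 18. In these 2 bins most of the listed peaks were isolated.

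Pooled over the autosomes, the isolated peaks had similar shares along the chromosome. The span from the first to the last peak of each autosome was cut into 5 equal parts, starting at the centromere end where mouse chromosomes begin. Members took 19.3, 19.7, 20.9, 20.3 and 19.8% of their number in these parts, with intervals that all overlap. The other autosomal peaks took 18.1, 17.1, 17.0, 20.5 and 27.3% and were most frequent in the last part (26.5 to 28.2%). The rule sets a ceiling on members in crowded sequence, so part of this contrast can follow from the rule. On chromosome 4, 49.6% of the other peaks but 17.0% of the members lay in the last part. By autosome, the share of members there ran from 13.8% on chromosome 11 to 27.2% on chromosome 1, and that of other peaks from 10.7 to 49.6%. The share of members was below that of the other peaks on 12 of the 19 autosomes. On chromosome 14 the order was turned, with 21.8% of members and 10.7% of other peaks, so the pooled pattern does not hold on each chromosome.

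**Figure D4:**
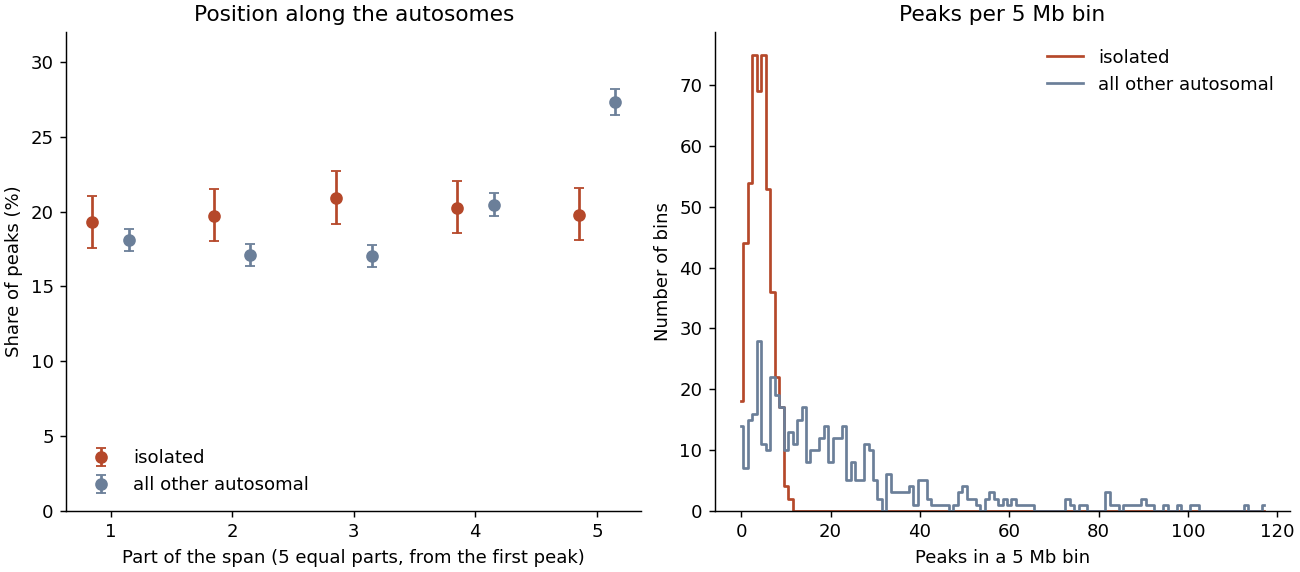
Left, share (%) of isolated and of all other autosomal peaks in each of 5 equal parts of the span, with 95% Clopper-Pearson intervals; right, number of 5 Mb bins by how many peaks of each kind they hold. The isolated peaks stay between 19.3 and 20.9% and reach at most 11 per bin, while the other peaks reach 27.3% in the last part and reach 117 per bin. In both panels the rule limits isolated peaks where peaks are crowded.

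The number of isolated peaks per Mb differed less between autosomes than that of other peaks. Over all autosomes there were 0.853 members per Mb of span (95% Poisson interval 0.816 to 0.891) and 4.39 other peaks. Chromosome 13 had the highest density of members, 1.1 per Mb (0.918 to 1.31), and chromosome 18 followed at 1.03 (0.825 to 1.26), an interval that overlaps it. Chromosome 4 had the lowest density, 0.618 per Mb (0.499 to 0.756), with chromosome 11 next at 0.676 (0.536 to 0.841). The highest autosome was 1.78 times the lowest for members and 2.85 times for other peaks, which ran from 2.84 per Mb on chromosome 1 to 8.10 on chromosome 11. The rule limits members on crowded chromosomes, so part of this contrast can follow from the rule.

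**Figure D5:**
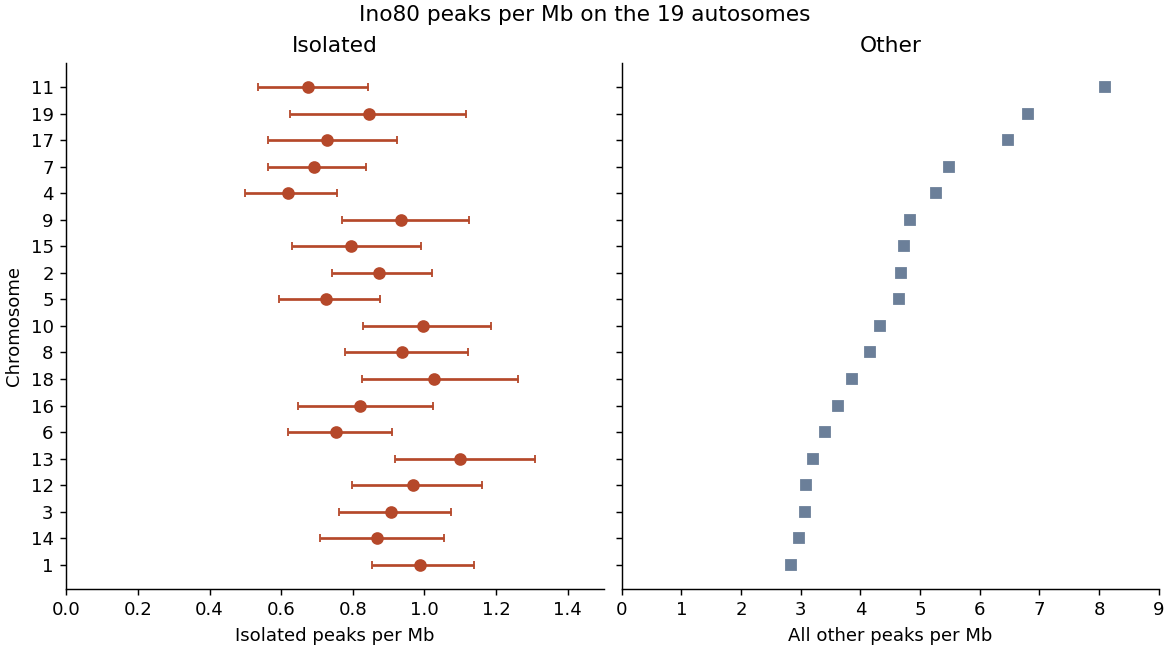
Isolated peaks per Mb (left, with 95% Poisson intervals) and all other peaks per Mb (right) on the 19 autosomes, ordered by the number of other peaks per Mb. Isolated peaks stay between 0.618 and 1.1 per Mb while other peaks run from 2.84 to 8.10 per Mb. The rule limits isolated peaks where peaks are crowded.

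Autosomes with more other peaks per Mb had fewer isolated ones per Mb. Members per Mb and other peaks per Mb had a Spearman's rho of -0.60 over the 19 autosomes, a description in which both densities share the span as divisor and a crowded chromosome leaves less room for isolation. Against protein-coding genes per Mb, counted by chromosome in the RefSeq table of GRCm38.p6, rho was -0.65 for members and 0.89 for other peaks. These densities again share the span of the mm9 peaks as divisor. The rule leaves less room for members where other peaks are many, so part of the value for members can follow from the rule. Chromosome 11, with 1609 such genes, had 80 members, 7.70% of its peaks (6.15 to 9.49%). Chromosome 1 had 191 members, 25.8% of its peaks (22.7 to 29.1%), with 1204 genes on a longer span. Median widths of the members differed little between autosomes, at 2800 bp on 12 of them and between 2600 bp and 3200 bp on all, the highest on chromosome 2.

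Chromosome X was outside the rule. By distance alone, 71 of its 207 peaks were isolated, 34.3% (27.9 to 41.2%), compared with 17.6% of autosomal peaks (16.9 to 18.2%). This difference was not tested. Which genes the isolated peaks lie in or near, and their sequence, were not analysed here, because no mm9 annotation or genome was used.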

How the data were processed

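The deposited table is a list of peaks from 1 Ino80 ChIP-seq library, matched to its sample by the title in its name. As deposited by the authors it holds positions (a peak name, its chromosome, both ends and one strand sign throughout), with no other value per peak. Depth per peak is therefore unknown. Tools in the submitters' processing notes are SICER 1.1, Bowtie 0.12.8, CASAVA 1.7 and bedtools, and builds are mm9 and hg19, with no roles. For the settings, control library and pooling, the sources used here give nothing. SICER joins neighbouring enriched windows, so widths depend on its settings. All 12749 starts lay on a 200 bp grid and all ends 1 bp short of it; 1 bp was added to both for the printed positions, read as mm9.

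Distances were counted as peak-free bp between edges. Shares carry exact Clopper-Pearson intervals, densities exact Poisson intervals and medians order-statistic intervals, all at 95% (Python 3.11.15, pandas 2.3.3, scipy 1.17.1). Bins were counted from the first peak of each autosome. With 1 library no test was made. The rule for the set and the choice of measures were made with earlier results of these data known. Regions named are the 10 most isolated, the 10 widest, the middle member and those beside each limit; runs, bins and chromosomes named outside this rule were chosen after their values were seen. Genes per chromosome came from the RefSeq table of GRCm38.p6, of which no coordinate was used. The rule was checked on a made-up list. Start sites, base composition, motifs and the planned gene lists were not analysed here, for want of an mm9 genome.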

Additional observations from a re-analysis of the deposited data

How the results depend on the processing

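The number of isolated peaks followed the distance limit, with 3418 at 50 kb and 990 at 200 kb in place of 2042. Midpoint distances (2106), joining peaks under 5 kb apart (2081) and dropping the width limits (2203) moved it by less than 1.5 times. The median width of 2800 bp became 3000 bp at 50 kb, 2600 bp at 200 kb and 2600 bp without width limits. The density of 0.853 per Mb became 0.414 at 200 kb and 0.920 without width limits, and the share of 1 Mb bins with a member went from 55.9% to 34.0% and 59.3%. The density and the share of bins follow the number of peaks each setting admits. Dropping the width limits admitted 147 peaks below the lower limit and 14 above the upper one. For the change of the median width with the distance limit, the cause was not tested. Under 5 such settings, chosen after the data were seen, rho of width and distance ran from -0.20 to -0.15, and the ratio of the highest to the lowest autosome from 1.37 at 50 kb to 2.29 at 200 kb. Alternatives on start sites, base composition and motifs were not run. No paired analysis was possible because no group has a second sample. Without read counts, no peak could be weighed by depth.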
